A study of Mus musculus with 48 samples.

Results

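Myc and 40 genes of ribosome biogenesis were followed across the splenic T cells of mice given interleukin-2 (IL-2) molecules. The 41 genes were chosen by name for their function, with earlier results of these data known. All 41 were among the 53345 genes of the deposited tables and passed the filter on low counts in every comparison. Besides Myc they were 3 genes of RNA polymerase I transcription, 7 of the small nucleolar ribonucleoproteins (snoRNPs), 10 of the small-subunit processome, 7 of later 40S assembly, 9 of 60S assembly and 4 coding for multifunctional nucleolar proteins.

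Female C57BL/6 mice, 8 to 12 weeks old, received PBS or 25 µg of human IL-2 fused to Fc, subcutaneously and once, as the wild-type molecule (WT IL-2) or as the attenuated muteins H16R, with a single substitution, or 3x, with 3 substitutions. Each mouse had been given an isotype control antibody or an antibody that blocks MHC class II, 500 µg by intraperitoneal injection, 2 doses. Spleens were taken on day 4, and regulatory T cells (Tregs) were the CD25-bound fraction of a magnetic kit, with conventional T cells (Tcons) as its CD25- flow-through. There were 4 mice in each of the 8 Treg groups, and the Tcons came from 2 mice of each group. The comparisons asked how each molecule changed the genes within each antibody arm, whether the molecules differed, whether the antibody changed the response and whether Tcons of the same mice shared it. The mice were the replicates, and the isotype WT IL-2 libraries include a pair carrying the same mouse number, called 3a and 3b here. The pair was fitted as separate replicates, and if the label holds this group had fewer than 4 mice.

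Myc is a transcription factor that pairs with Max on E-box DNA and drives cell growth, and the genes for making ribosomes are among its best known targets. RNA polymerase I copies the ribosomal DNA in the nucleolus. The transcript is then modified by box C/D and box H/ACA snoRNPs, cut and folded inside the small-subunit processome, and matured along separate 40S and 60S routes. In T cells, antigen receptor and IL-2 signals raise Myc, and ribosome production goes with blast formation and division.

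Library totals ran from 18.28 to 51.24 M (mega) expected counts in Tregs and from 31.31 to 51.95 M in Tcons, and were lowest in isotype PBS Tregs. Levels are given as CPM, counts scaled to the library total and by TMM, so they are relative to the library's own RNA, and fewer cells of a type cannot be told apart from less RNA per cell. Foxp3, Il2ra, Ikzf2 and Ctla4 summed to 2261 to 4162 CPM in Tregs and 290.4 to 1357 CPM in Tcons. In isotype Tregs the sum was 2481 to 3103 CPM with PBS and 3598 to 4111 with WT IL-2. It was 3841 to 3904 CPM with H16R and 3788 to 3941 with 3x. With block it was 2646 to 2866, 2261 to 3203, 3392 to 3744 and 3714 to 4162 CPM in the same order. The part of this shift in the members' differences was not tested. The highest Tcon value belonged to isotype WT IL-2 replicate 2, beside 525 CPM in replicate 1. Myeloid markers stood apart in isotype PBS Treg replicate 1 (100.5 CPM against 29.6 to 41.3 in the other 3) and MHC II block WT IL-2 Treg replicate 1 (486 CPM against 35.7 to 67.9). All 8 B cell markers were above 0 in every Treg library. Their sum in the isotype arm was 9459 to 16932 CPM with PBS, 6455 to 8319 with WT IL-2, 3300.1 to 5393 with H16R and 1492 to 2491 in the 3x mice. With block it was 5132 to 17933, 13039 to 31424, 7920.0 to 13193 and 6809.7 to 12380.4 CPM in the same order.

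In isotype PBS Tregs the members spanned a wide range of levels per transcript length, given as the deposited fragments per kilobase of transcript (FPKM, scaled to library size) ± SD over 4 mice. Npm1, which codes for the nucleolar chaperone nucleophosmin, was highest at 602 ± 46.4 FPKM, followed by Ncl (nucleolin) at 122 ± 3.21 and Fbl, the methyltransferase of the box C/D particle, at 122 ± 19.3, and these last 2 did not differ beyond their spread. Myc itself was at 45.0 ± 6.94 FPKM, and Wdr12, a subunit of the PeBoW complex of 60S assembly, was lowest at 7.03 ± 0.432, with Utp20 (7.26 ± 0.894) and Dimt1 (7.40 ± 0.331) within its spread.

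The 41 members together held 0.516% ± 0.014 (SD, n = 4) of all counts in isotype PBS Tregs. With WT IL-2 the share was 0.420% ± 0.007, with H16R 0.379% ± 0.008 and with 3x 0.415% ± 0.017, and no treated library reached the lowest PBS library. In the MHC II block arm the shares were 0.494% ± 0.007 with PBS, 0.420% ± 0.011 with WT IL-2, 0.369% ± 0.009 under H16R and 0.372% ± 0.007 under 3x, again without overlap. The isotype Tcon libraries held 0.491 to 0.514% with PBS, 0.402 to 0.503% with WT IL-2, 0.486 to 0.514% with H16R and 0.468 to 0.472% with 3x, the last below both PBS libraries. The MHC II block Tcons held 0.511 to 0.522% with PBS, 0.496 to 0.498% with WT IL-2, 0.480 to 0.504% with H16R and 0.560 to 0.590% with 3x, the last above both PBS libraries.

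**Figure D1:**
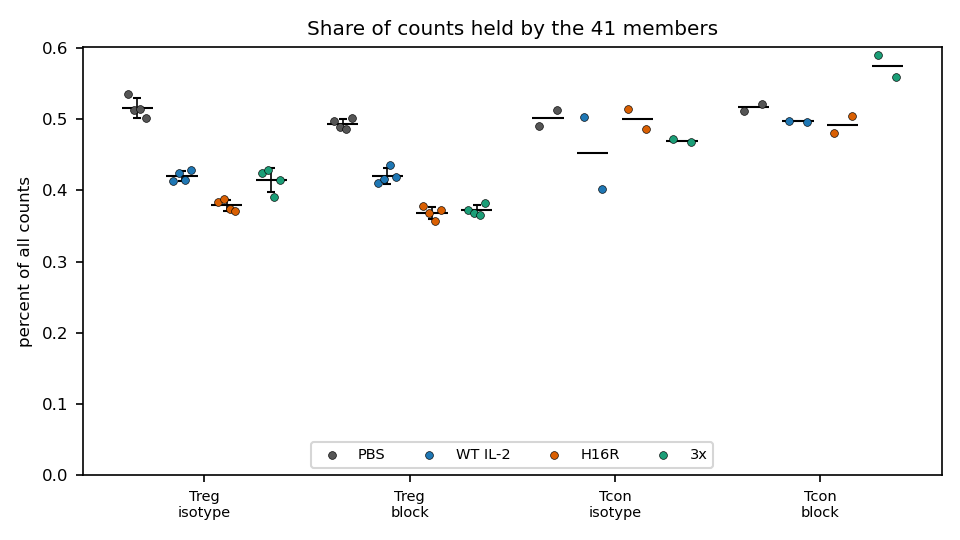
Share of all counts held by the 41 members in each of the 48 libraries (percent, y axis) by cell type, antibody (isotype or MHC II block) and treatment (colour). Points are libraries, long bars are means and error bars in Tregs are SD; the PBS Tregs sit at 0.486% or above and every IL-2-treated Treg library at 0.436% or below.

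Myc transcripts were lower with each molecule in isotype Tregs. The 4 PBS libraries held 119, 98.4, 91.4 and 85.8 CPM, the WT IL-2 libraries 67.7, 60.8, 68.2 and 76.3, the H16R libraries 55.7, 60.1, 56.5 and 54.2 and the 3x libraries 66.5, 73.1, 66.1 and 69.5. Every treated library lay below every PBS library, and the H16R libraries formed the lowest set. The log2 fold changes against PBS, with their standard errors and the adjusted p of edgeR's quasi-likelihood test, were -0.54 ± 0.09, adjusted p = 1.9e-05 for WT IL-2, -0.80 ± 0.09, adjusted p = 1.7e-08 for H16R and -0.51 ± 0.09, adjusted p = 1.7e-05 for 3x.

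The other members moved the same way. With WT IL-2, members counted 0 higher and 39 lower, beside 26.0% higher and 26.2% lower of all 12392 genes tested, at an adjusted p under 0.1. With H16R they counted 0 higher and 41 lower, beside 31.4% higher and 32.8% lower of all 12392 genes tested. With 3x they counted 0 higher and 38 lower, beside 31.3% higher and 32.3% lower of all 12392 genes tested. The median log2 fold change of the 41 was -0.30 for WT IL-2, -0.45 for H16R and -0.30 for 3x, beside medians of -0.01, -0.01 and -0.01 over all genes tested. Noc4l and Polr1a did not pass the threshold with WT IL-2, nor did Wdr36, Gar1 and Nob1 with 3x. All 4 treated libraries lay below all 4 PBS libraries for 31 members (WT IL-2), 38 (H16R) and 31 (3x), beside 16.0%, 23.5% and 23.8% of all genes. The 3 comparisons share their PBS libraries. Of the 6 protein-coding B cell markers tested, 6 fell with each molecule in this arm. The sum of the 3 plasma cell markers was 1519 to 1844 CPM with PBS, 631 to 766 with WT IL-2, 185 to 434 with H16R and 81.4 to 176 with 3x, with no overlap between the groups. Of 5 myeloid markers, 3 fell with WT IL-2 and 4 with each mutein, which also came with 1 higher. The CD8 T and NK cell marker sum was 33.0 to 37.6 CPM with PBS and 21.0 to 27.3 with WT IL-2. It was 15.4 to 20.7 CPM with H16R and 17.6 to 23.0 with 3x, with every treated library below every PBS library. The part of RNA from these cells in the members' differences was not tested here. Without isotype PBS replicate 1 and MHC II block WT IL-2 replicate 1, 35, 41 and 36 members passed the threshold.

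The members are described by role for H16R. Among the RNA polymerase I genes, Polr1b, which codes for the second largest subunit, fell by 0.60 on the log2 scale, while Polr1a (the largest subunit, -0.21 ± 0.06) and Tcof1 (treacle, an rDNA transcription factor, -0.20 ± 0.03) changed less. The box C/D core genes Nop56, Nop58 and Fbl had a median of -0.53, and the box H/ACA genes Dkc1, Gar1 and Nhp2, which serve pseudouridylation, -0.45. Nolc1, which helps assemble both kinds of particle, was at -0.61 ± 0.05. Nop56 held 158, 152, 160.2 and 149.9 CPM with PBS, 110.0, 112, 111 and 117 with WT IL-2, 95.7, 99.9, 95.7 and 96.2 with H16R and 108, 109.6, 101 and 112 with 3x. Its treated libraries thus all stood below 118 CPM and its PBS libraries above 149 CPM.

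**Figure D2:**
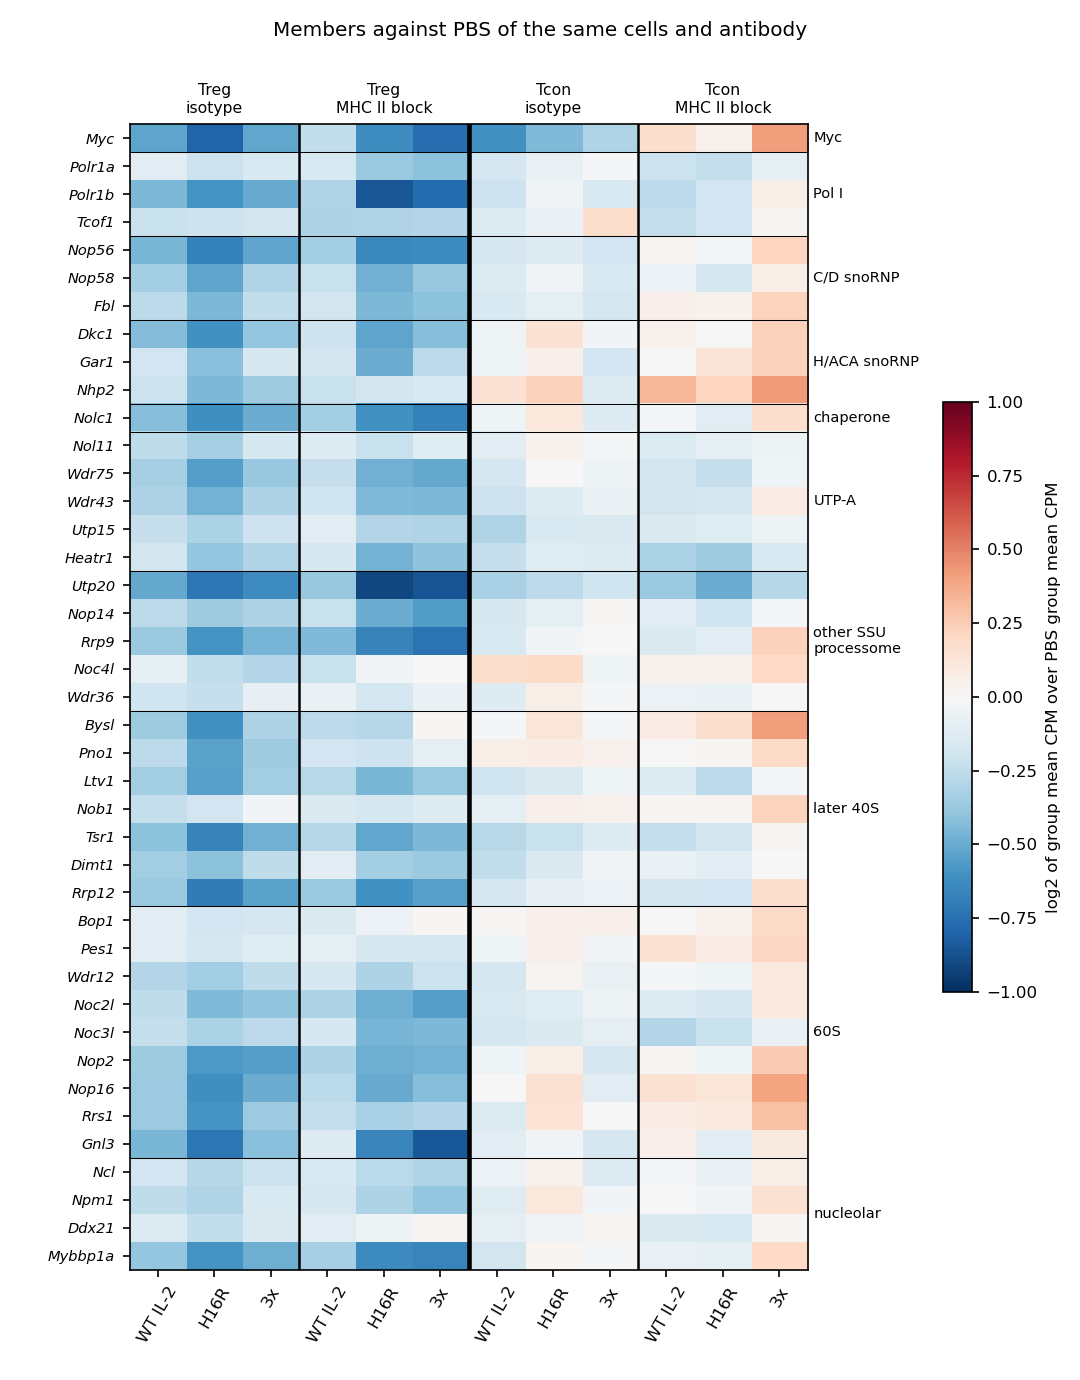
Log2 of each group's mean CPM over the PBS mean of the same cells and antibody, for the 41 members (rows, by role) in 12 treated groups (columns); blue is lower than PBS. Treg columns are means of 4 libraries over 4 and are blue for nearly all members, while Tcon columns are means of 2 over 2 and are mostly paler, with red cells in the MHC II block 3x column.

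The small-subunit processome cuts and folds the 40S portion of the transcript. Its early UTP-A group, which also supports rDNA transcription (Nol11, Wdr75, Wdr43, Utp15 and Heatr1), fell in 5 of 5 members with H16R at a median of -0.38. Of the other processome genes, Utp20 held 57.8, 65.6, 59.2 and 75.3 CPM with PBS, 37.3, 53.7, 36.3 and 53.3 with WT IL-2, 41.2, 41.2, 34.0 and 39.5 with H16R and 41.3, 46.2, 39.2 and 40.2 with 3x. The PBS libraries were the highest, and the WT IL-2 libraries split into a pair near 37 and a pair near 53 CPM. The log2 fold changes of Utp20 were -0.51 ± 0.10, adjusted p = 0.00021, -0.72 ± 0.10, adjusted p = 1.2e-06 and -0.61 ± 0.10, adjusted p = 1.2e-05 for WT IL-2, H16R and 3x. Rrp9, the U3 snoRNA-binding protein, went from 49.7, 45.1, 48.5 and 32.4 CPM with PBS to 29.6, 29.2, 28.7 and 28.5 with H16R, with PBS replicate 4 lowest of its group and still above the H16R libraries.

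Ddx21, Nol11, Wdr36 and Wdr75 were named by the study from these same samples, so their direction is not independent evidence. Wdr75 held 48.9, 53.5, 47.8 and 57.2 CPM with PBS and 35.1, 36.0, 34.6 and 35.5 with H16R (-0.55 ± 0.05, adjusted p = 8.7e-10). Nol11 held 44.2, 51.1, 50.7 and 51.1 and 38.6, 39.3, 39.8 and 38.5 CPM (-0.33 ± 0.05, adjusted p = 7.9e-07). Neither pair of groups overlapped, although PBS replicate 1 sat below its 3 companions for Nol11. Wdr36, a processome WD-repeat protein, held 55.6, 57.9, 58.6 and 60.9 CPM with PBS, 49.3, 51.5, 49.2 and 48.0 with H16R (-0.23 ± 0.04, adjusted p = 1.6e-05) and 56.5, 54.8, 53.3 and 56.0 with 3x (-0.07 ± 0.04, adjusted p = 0.14). Its 3x libraries thus overlapped the PBS range. Ddx21, a nucleolar RNA helicase, held 341, 341, 346 and 379 CPM with PBS and 305, 299.6, 303 and 282 with H16R (-0.24 ± 0.04, adjusted p = 3.8e-06), a small fall without overlap. With WT IL-2 the values were 38.9, 42.7, 39.9 and 42.9 CPM for Wdr75, 39.4, 44.0, 40.8 and 40.9 for Nol11, 51.8, 52.5, 49.9 and 48.7 for Wdr36 and 311, 333, 319.5 and 318 for Ddx21. Each of those 4 sets lay below the PBS set of the same gene.

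Later 40S factors finish the small subunit in the nucleolus and cytoplasm, and 7 of 7 fell with H16R, from -0.70 for Rrp12 to -0.19 for Nob1, the nuclease of the last 18S cut. Rrp12, a pre-ribosome export factor, held 38.5, 34.9, 39.7 and 31.8 CPM with PBS, 22.2, 22.5, 21.8 and 22.5 with H16R and 27.2, 25.6, 21.9 and 25.2 with 3x, without overlap with PBS. Its log2 fold change was -0.70 ± 0.07, adjusted p = 8.6e-10 for H16R and -0.53 ± 0.07, adjusted p = 1.3e-07 for 3x. Nob1 held 43.7, 40.6, 40.2 and 38.7 CPM with PBS and 43.2, 39.8, 37.4 and 39.7 with 3x, and these sets overlapped (-0.02 ± 0.05, adjusted p = 0.75).

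All 9 members of 60S assembly fell with H16R, at a median of -0.44. Gnl3 (nucleostemin, a nucleolar GTPase of dividing cells) held 53.8, 53.1, 51.4 and 54.8 CPM with PBS and 32.1, 33.7, 30.6 and 33.1 with H16R (-0.72 ± 0.05, adjusted p = 1.7e-12). Nop2, a methyltransferase of the 28S rRNA, held 65.2, 57.1, 59.5 and 58.5 CPM with PBS and 42.5, 41.2, 41.6 and 38.8 with 3x (-0.54 ± 0.04, adjusted p = 6.3e-11). Within 60S assembly the smallest falls with H16R were those of Pes1 and Bop1, partners of Wdr12 in the PeBoW complex, at -0.17 ± 0.05 and -0.19 ± 0.05. Among the multifunctional nucleolar genes Mybbp1a, a Myb-binding protein, fell most (-0.60 ± 0.04).

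The upstream regions of members were searched for the E-box CACGTG, which reads the same on both strands, because Myc with Max binds it. RefSeq windows of mouse GRCm38.p6, 250 bases before to 50 bases after the start, were at hand for 33 members, in 36 windows, and 9 of the 36 windows (25.0%), each of a different member, held the letters, against 7.15% of all 32851 windows. In 7 of the 9 (Mybbp1a, Wdr43, Tsr1, Ltv1, Utp20, Pes1 and Pno1) the motif lay after the start, and in Nop2 and Nol11 before it, while 6.02% of all windows held it before the start. Myc, Npm1, Wdr36, Fbl, Bop1, Rrp12, Tcof1 and Rrs1 had no window in the table. A match is a description of the letters and not a binding site. Of the 9, the 4 whose levels were most like those of Myc over the 32 Treg libraries are shown, Nop2 by the 250 bases before its start on the plus strand (chr6:125131633-125131882) and the others by 30 bases around the motif (Mybbp1a chr11:72441347-72441376, Wdr43 chr17:71616220-71616249 and Tsr1 chr11:74898092-74898121, all plus strand), 5′ to 3′ with the E-box in capitals.
Nop2: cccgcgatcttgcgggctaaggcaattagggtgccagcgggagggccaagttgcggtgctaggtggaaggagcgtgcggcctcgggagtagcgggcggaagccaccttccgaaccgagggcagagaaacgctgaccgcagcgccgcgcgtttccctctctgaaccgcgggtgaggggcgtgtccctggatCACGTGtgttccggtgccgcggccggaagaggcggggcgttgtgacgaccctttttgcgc
Mybbp1a: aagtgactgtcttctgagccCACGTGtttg
Wdr43: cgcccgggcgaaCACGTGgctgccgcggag
Tsr1: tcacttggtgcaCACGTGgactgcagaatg

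Pearson's r with Myc on the log2 CPM scale over the 32 Treg libraries was highest for Nolc1 (0.929), Mybbp1a (0.926), Nop56 (0.918) and Noc2l (0.911), and lowest for Noc4l (0.289), Bop1 (0.311) and Ddx21 (0.313). The median over the 40 other members was 0.82, against 0.049 over the other genes tested. These points share their treatment groups, and after group means were taken out the median of the 40 was 0.11 (range -0.56 to 0.60). The values are descriptive.

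With MHC II blocked, the 3 molecules also came with lower members. With WT IL-2 the members counted 0 higher and 35 lower, beside 21.9% higher and 13.7% lower of all 12392 genes tested. With H16R they counted 0 higher and 38 lower, beside 32.7% higher and 33.8% lower of all 12392 genes tested. With 3x they counted 0 higher and 36 lower, beside 34.7% higher and 38.3% lower of all 12392 genes tested. Medians were -0.20, -0.46 and -0.41, beside 0.02, -0.02 and -0.04 over all genes. All 4 treated libraries lay below the 4 PBS libraries for 32, 36 and 33 members, beside 14.7%, 27.5% and 31.7% of all genes. In the WT IL-2 comparison 3 of 6 B cell markers were higher and none lower, and the sums of the 8 overlapped between the groups. The myeloid sum was 21.0 to 30.4 CPM with PBS, 35.7 to 486 with WT IL-2, 40.1 to 68.1 with H16R and 54.1 to 71.0 with 3x, above every PBS library in each, and 5, 1 and 1 of 5 myeloid markers were called higher. Of 3 plasma cell markers, 3 were higher with WT IL-2, and 1 was lower with H16R and 2 with 3x. The part of these markers in the members' differences was not tested. Without the 2 libraries that stood apart, 29, 38 and 35 members passed.

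Myc in the MHC II block arm held 93.4, 91.2, 93.5 and 87.9 CPM with PBS, 91.1, 75.2, 70.2 and 72.1 with WT IL-2, 64.0, 58.9, 52.7 and 62.7 with H16R and 52.1, 59.2, 53.6 and 51.5 with 3x. WT IL-2 replicate 1, a library with high myeloid markers, lay among the PBS libraries, and all others lay below them. The log2 fold changes were -0.23 ± 0.09, adjusted p = 0.054, -0.62 ± 0.09, adjusted p = 1e-06 and -0.77 ± 0.09, adjusted p = 1.7e-08. Utp20 held 66.7, 65.0, 68.2 and 68.5 CPM with PBS, 50.003, 50.1, 50.5 and 55.8 with WT IL-2 (-0.36 ± 0.10, adjusted p = 0.0088), 35.2, 40.0, 34.7 and 33.1 with H16R (-0.91 ± 0.10, adjusted p = 2e-08) and 34.9, 41.0, 36.0 and 35.7 with 3x (-0.87 ± 0.10, adjusted p = 2.1e-08). It was the largest fall of the 41 with both muteins. Gnl3 held 48.6, 47.1, 48.6 and 49.9 CPM with PBS, 45.3, 44.9, 44.0 and 43.9 with WT IL-2, 30.9, 33.3, 30.1 and 28.6 with H16R and 25.7, 29.8, 26.1 and 26.6 with 3x (-0.85 ± 0.05, adjusted p = 1.9e-14). Polr1b held 43.8, 39.9, 44.6 and 43.3, 33.5, 32.6, 35.9 and 37.3, 23.9, 26.7, 21.9 and 22.5 (-0.86 ± 0.07, adjusted p = 2.6e-11) and 25.1, 27.0, 24.2 and 24.6 CPM (-0.78 ± 0.07, adjusted p = 6.3e-11) in the same order. Both genes thus stood lower with either mutein than with WT IL-2 or PBS, with no overlap. Rrp9 held 46.6, 44.3, 45.9 and 46.6 CPM with PBS and 33.5, 34.8, 32.2 and 34.7 with WT IL-2 (-0.42 ± 0.08, adjusted p = 0.0002), and Rrp12 held 33.3, 34.8, 33.9 and 36.1 and 27.9, 26.7, 26.3 and 26.0 (-0.35 ± 0.07, adjusted p = 0.00024). With the muteins Rrp9 held 29.6, 26.2, 28.7 and 31.0 CPM (H16R, -0.67 ± 0.08, adjusted p = 3.6e-08) and 26.3, 27.7, 28.6 and 27.5 (3x), and Rrp12 21.5, 22.3, 22.7 and 24.2 and 23.6, 23.2, 23.6 and 24.3. For both genes every mutein library lay below every PBS library.

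A few members did not follow under the muteins when MHC II was blocked. Bysl (bystin, a 40S assembly factor) held 27.9, 27.4, 28.2 and 29.4 CPM with PBS, 23.6, 23.0, 22.1 and 24.1 with H16R and 30.5, 24.3, 29.7 and 29.6 with 3x, and the 3x libraries overlapped PBS (0.00 ± 0.07, adjusted p = 0.96). Noc4l, a processome factor, held 41.5, 39.6, 38.2 and 39.5 CPM with PBS and 40.7, 36.3, 40.7 and 40.3 with 3x (-0.02 ± 0.06, adjusted p = 0.8). Ddx21 held 321, 308, 310.4 and 321 CPM with PBS, 305, 298, 298 and 315 with H16R (-0.06 ± 0.04, adjusted p = 0.2) and 318, 305, 315 and 345 with 3x (0.01 ± 0.04, adjusted p = 0.74). Pno1 and Bop1 also missed the threshold with 3x, and Bop1 and Noc4l with H16R.

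**Figure D3:**
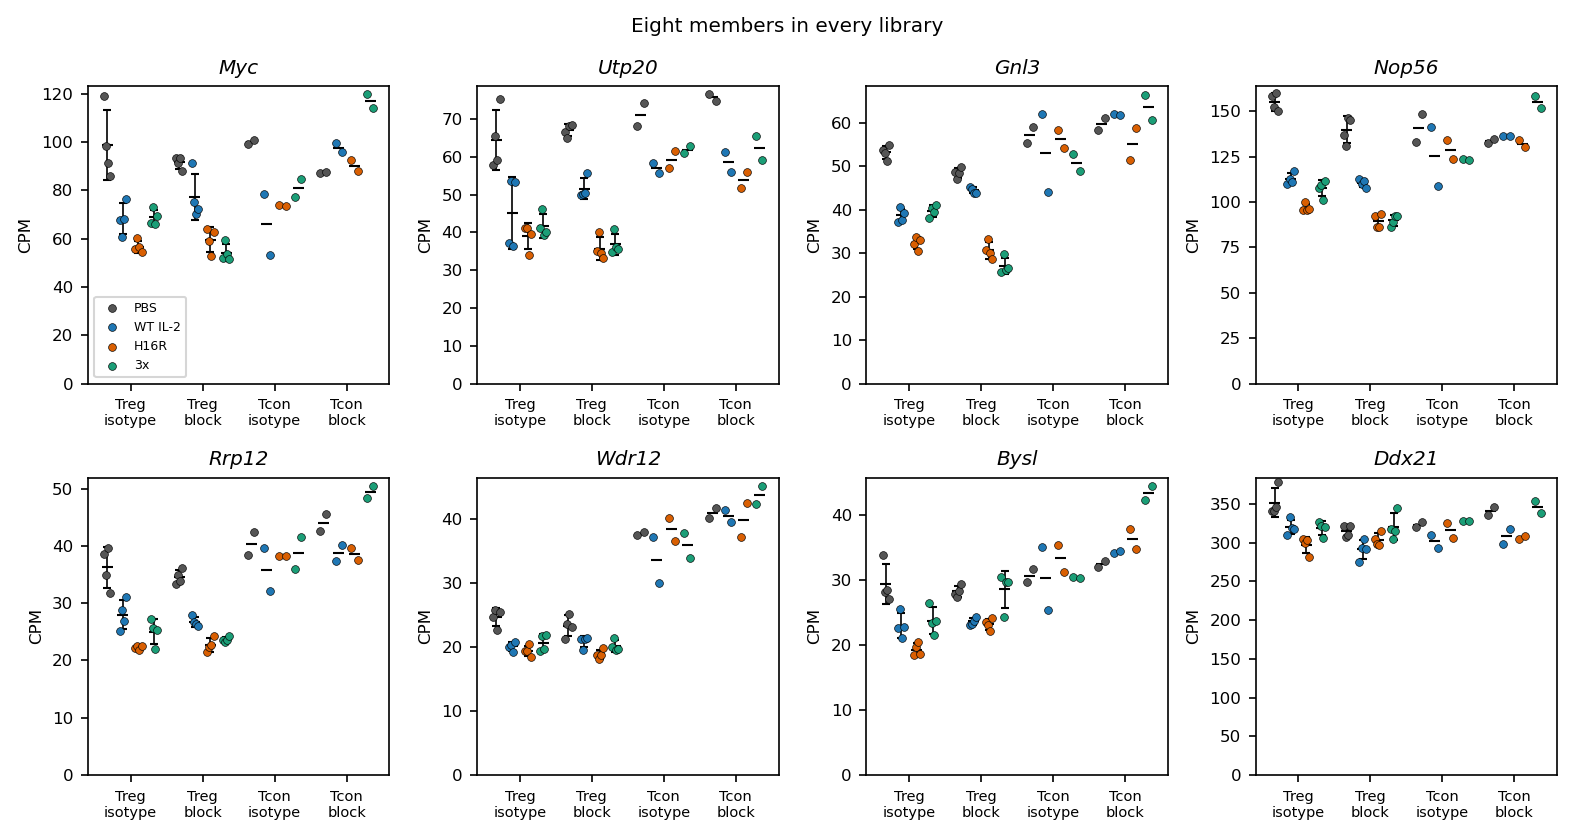
CPM (y axes from 0) of Myc, Utp20, Gnl3, Nop56, Rrp12, Wdr12, Bysl and Ddx21 in each of the 48 libraries by cell type, antibody and treatment (colour); long bars are means and error bars in Tregs are SD. In the isotype arm treated Tregs lie below PBS for Myc (85.8 CPM or more with PBS, 76.3 or less after IL-2) and with MHC II block WT IL-2 replicate 1 (91.1 CPM) lies among the PBS libraries, while Bysl with MHC II block and 3x (24.3 to 30.5 CPM) meets its PBS range (27.4 to 29.4).

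The 3 molecules were given at the same dose and taken on the same day, and 3 pairs were compared in each arm, 6 in all, with p-values adjusted over genes within a pair and not over pairs. H16R against WT IL-2 in isotype Tregs gave 0 higher and 25 lower, beside 8.87% higher and 9.76% lower of all 12392 genes tested, at a median of -0.18. The largest differences were those of Rrp12 (-0.33 ± 0.07, adjusted p = 0.002), Myc (-0.26 ± 0.09, adjusted p = 0.05) and Pno1, a KH-domain 40S factor (-0.26 ± 0.06, adjusted p = 0.0086). Pno1 held 23.9, 27.5, 25.4 and 25.6 CPM with WT IL-2 and 20.3, 22.6, 22.0 and 20.2 with H16R. Rrp12 held 25.2, 28.7, 26.8 and 31.1 CPM with WT IL-2, with every H16R library below every WT IL-2 library. For Myc and Pno1 too, every H16R library lay below every WT IL-2 library. For 3x against H16R the members counted 20 higher and 0 lower, beside 5.76% higher and 5.77% lower of all 12392 genes tested, at a median of 0.14. Here the levels with 3x were the higher, as for Gnl3, with 32.1, 33.7, 30.6 and 33.1 CPM with H16R and 38.0, 40.4, 39.6 and 41.2 with 3x (0.31 ± 0.05, adjusted p = 0.00036), Bysl, with 18.4, 19.7, 20.4 and 18.6 and 26.4, 23.3, 21.5 and 23.8 CPM (0.31 ± 0.07, adjusted p = 0.01), and Myc (0.29 ± 0.09, adjusted p = 0.046). None of these 3 genes overlapped between the mutein groups. The count of 20 was 12 without H16R replicate 4 and 13 without 3x replicate 1, 2 or 4.

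For 3x against WT IL-2 in isotype Tregs the members counted 4 higher and 5 lower, beside 16.9% higher and 17.7% lower of all 12392 genes tested, at a median of -0.01. Nob1 (0.22 ± 0.05, adjusted p = 0.0034) and Wdr36 (0.13 ± 0.04, adjusted p = 0.012) were the largest of the higher, and Noc4l (-0.19 ± 0.05, adjusted p = 0.0096) and Nop2 (-0.19 ± 0.04, adjusted p = 0.002) of the lower. Myc was not called, with a difference of 0.02 (95% interval -0.15 to 0.20). The count was 5 without WT IL-2 replicate 3b or without 3x replicate 4. Noc4l held 37.5, 41.2, 38.7 and 39.8 CPM with WT IL-2, with every 3x library below every WT IL-2 library. Nop2 held 48.6, 45.2, 45.2 and 49.2 CPM, with every 3x library below every WT IL-2 library. Nob1 held 36.4, 34.4, 34.2 and 33.6 CPM, with every 3x library above every WT IL-2 library. Npm1 was the third of the higher members (0.11 ± 0.05, adjusted p = 0.073) at 735, 677, 741 and 697 CPM with WT IL-2, with the 3x and WT IL-2 libraries overlapping.

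With MHC II blocked, both muteins differed from WT IL-2 in most members. H16R against WT IL-2 gave 1 higher and 31 lower, beside 25.5% higher and 32.0% lower of all 12392 genes tested, at a median of -0.24. For 3x against WT IL-2 the members counted 4 higher and 28 lower, beside 30.0% higher and 38.7% lower of all 12392 genes tested, at a median of -0.20. Gnl3 showed the largest difference of 3x from WT IL-2 (-0.75 ± 0.05, adjusted p = 2.7e-12), followed by Myc (-0.54 ± 0.09, adjusted p = 9.6e-06), and Polr1b that of H16R (-0.58 ± 0.07, adjusted p = 2.3e-07). The members higher with 3x than with WT IL-2 were Bysl (0.24 ± 0.07, adjusted p = 0.0046), Noc4l (0.19 ± 0.05, adjusted p = 0.0048), Bop1 (0.13 ± 0.05, adjusted p = 0.034) and Ddx21 (0.11 ± 0.04, adjusted p = 0.012). Noc4l was also the member higher with H16R than with WT IL-2 (0.17 ± 0.06, adjusted p = 0.014). In this arm Noc4l held 33.6, 35.0, 32.9 and 34.8 CPM with WT IL-2 and 39.7, 35.0, 39.4 and 41.1 with H16R, with every H16R library above every WT IL-2 library. Bysl held 23.1, 23.3, 23.7 and 24.4 CPM with WT IL-2, with the 3x and WT IL-2 libraries overlapping. Bop1 held 71.1, 67.6, 66.6 and 70.7 CPM with WT IL-2 and 75.7, 73.4, 80.0 and 79.6 with 3x, with every 3x library above every WT IL-2 library. For 3x against H16R the members counted 2 higher and 1 lower, beside 12.7% higher and 12.5% lower of all 12392 genes tested. Gnl3 was lower with 3x (-0.19 ± 0.05, adjusted p = 0.0079), and Bysl (0.29 ± 0.07, adjusted p = 0.0055) and Wdr36 (0.10 ± 0.04, adjusted p = 0.079) were higher. Wdr36 held 47.5, 49.3, 47.0 and 48.5 CPM with H16R and 54.7, 48.2, 51.7 and 52.3 with 3x, with the 3x and H16R libraries overlapping. That count was 5 without 3x replicate 2 and 5 without the libraries that stood apart. All 6 B cell markers tested were lower with either mutein than with WT IL-2 in this arm, and none was called between the muteins. Their part in the members' differences was not tested. Myc was not called between the muteins, at -0.15 (95% interval -0.32 to 0.03), an interval that still allows a lower level with 3x.

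The count of members that differed between the antibodies was largest in mice given 3x. Block against isotype gave 0 higher and 11 lower, beside 6.0% higher and 8.13% lower of all 12392 genes tested, in PBS Tregs. It gave 4 higher and 2 lower, beside 18.2% higher and 15.3% lower of all 12392 genes tested, with WT IL-2. It gave 3 higher and 10 lower, beside 15.4% higher and 15.2% lower of all 12392 genes tested, with H16R, and 3 higher and 27 lower, beside 27.2% higher and 26.9% lower of all 12392 genes tested, with 3x. Medians were -0.08, 0.02, -0.07 and -0.19 in that order. The PBS count was 6 when replicate 3 of the MHC II block group was left out and 7 when replicate 2 of either PBS group was, and the H16R count was 5 without MHC II block H16R replicate 3 and 8 without its replicate 4 or isotype H16R replicate 2. Under 3x, Gnl3 held 38.0, 40.4, 39.6 and 41.2 CPM with isotype and 25.7, 29.8, 26.1 and 26.6 with block (-0.58 ± 0.05, adjusted p = 4.7e-10). Myc held 66.5, 73.1, 66.1 and 69.5 and 52.1, 59.2, 53.6 and 51.5 (-0.37 ± 0.09, adjusted p = 0.0014), and Npm1 782, 780.4, 723 and 767 and 625, 594, 585 and 644 CPM (-0.34 ± 0.05, adjusted p = 1.2e-06). None of the 3 overlapped between the arms.

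Bysl, Noc4l and Bop1 were the members higher with block under 3x. Bysl held 26.4, 23.3, 21.5 and 23.8 CPM with isotype and 30.5, 24.3, 29.7 and 29.6 with block (0.24 ± 0.07, adjusted p = 0.0068), sets that overlapped, and Noc4l held 34.9, 35.7, 30.9 and 34.9 and 40.7, 36.3, 40.7 and 40.3 CPM (0.19 ± 0.05, adjusted p = 0.0059), sets that did not. Bop1 was at 0.12 ± 0.05, adjusted p = 0.064. It held 74.9, 68.0, 67.8 and 68.7 CPM with isotype, with the block and isotype libraries overlapping. Under H16R, Bysl (0.26 ± 0.07, adjusted p = 0.013), Nhp2 (0.22 ± 0.08, adjusted p = 0.039) and Noc4l (0.14 ± 0.06, adjusted p = 0.073) were higher with block, and Polr1b (-0.28 ± 0.07, adjusted p = 0.0056) and Noc3l, a 60S factor (-0.21 ± 0.05, adjusted p = 0.0028), were lower. Nhp2 held 27.0, 28.8, 25.3 and 23.3 CPM with isotype and 29.9, 29.8, 29.6 and 33.1 with block, with every block library above every isotype library. Noc4l held 34.7, 34.9, 35.3 and 35.6 CPM with isotype H16R, with the block and isotype libraries overlapping. Among the lower, Polr1b held 29.0, 29.6, 25.3 and 30.3 CPM with isotype, with the block and isotype libraries overlapping. Noc3l held 34.5, 34.1, 31.5 and 33.9 CPM with isotype and 28.2, 30.6, 28.1 and 29.5 with block, with every block library below every isotype library, and Heatr1 (-0.15 ± 0.06, adjusted p = 0.075) 73.5, 72.5, 65.4 and 72.7 CPM with isotype and 63.9, 68.1, 61.1 and 64.2 with block, with the block and isotype libraries overlapping. Under WT IL-2 the higher members included Gnl3 (0.22 ± 0.05, adjusted p = 0.0012) and Dkc1 (0.15 ± 0.04, adjusted p = 0.011), and the lower were Noc4l and Ddx21. Gnl3 held 37.2, 40.7, 37.7 and 39.2 CPM with isotype WT IL-2, with every block library above every isotype library. Dkc1 held 49.3, 52.1, 47.0 and 52.5 CPM with isotype and 52.1, 56.3, 59.0 and 53.3 with block, with the block and isotype libraries overlapping. Ddx21 held 276, 293, 305 and 291 CPM with block, with every block library below every isotype library. The third of the higher was Polr1b (0.15 ± 0.07, adjusted p = 0.093), at 30.1, 31.6, 30.1 and 35.2 CPM with isotype and with the block and isotype libraries overlapping. In PBS mice the largest falls were Pno1 (-0.23 ± 0.07, adjusted p = 0.028), Rrs1 (-0.16 ± 0.06, adjusted p = 0.063) and Ddx21 (-0.16 ± 0.04, adjusted p = 0.0069). Pno1 held 31.3, 28.5, 32.4 and 30.9 CPM with isotype and 25.4, 25.3, 27.2 and 27.5 with block in PBS mice, with every block library below every isotype library. Rrs1 held 38.0, 37.2, 39.6 and 31.1 CPM with isotype and 31.2, 33.3, 32.2 and 34.2 with block, with the block and isotype libraries overlapping. For Ddx21, whose PBS levels are given above, every block library lay below every isotype library. Proliferation markers rose with block in 7 of 8 genes both under H16R and under 3x. Under 3x the other, Pcna, was lower (-0.16 ± 0.06, adjusted p = 0.027). Of the 6 B cell markers tested, block came with 5 lower in PBS mice and with 6 higher under WT IL-2, 1 under H16R and 3 under 3x. Of 5 myeloid markers, 2 were lower in PBS mice, and 5, 4 and 3 were higher under WT IL-2, H16R and 3x. Their sum was 17.4 to 22.9 CPM with isotype and 40.1 to 68.1 with block under H16R, and 21.5 to 26.6 and 54.1 to 71.0 CPM under 3x. All 3 plasma cell markers were higher with block under each molecule and none was called in PBS mice. The part of these markers in the members' differences was not tested.

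**Figure D4:**
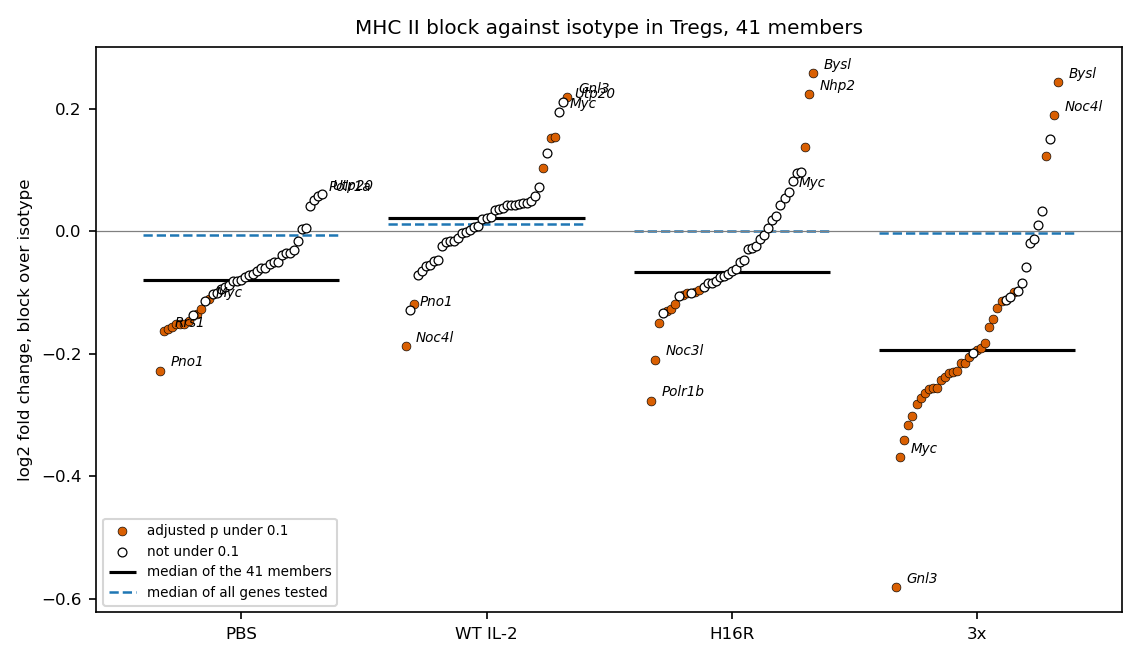
Log2 fold change of MHC II block over isotype in Tregs (y axis) for the 41 members, ordered within each treatment (x axis); filled points passed an adjusted p of 0.1, solid bars are members' medians and dashed bars medians of all genes tested. The median lies at -0.19 under 3x and at 0.02 under WT IL-2, with Gnl3 lowest and Bysl highest under 3x.

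Whether the response to a molecule differed between arms was tested by an interaction. For WT IL-2 the members counted 4 higher and 0 lower, beside 11.7% higher and 7.98% lower of all 12392 genes tested. These were Gnl3 (0.35 ± 0.07, adjusted p = 0.00082), Dimt1 (0.27 ± 0.09, adjusted p = 0.06), Dkc1 (0.25 ± 0.06, adjusted p = 0.0075) and Wdr36 (0.15 ± 0.06, adjusted p = 0.065). Under block Gnl3 and Dkc1 fell by less than with isotype, and Dimt1 (-0.09 ± 0.07, adjusted p = 0.36) and Wdr36 (-0.05 ± 0.04, adjusted p = 0.4) were not called. Leaving out replicate 2 of the MHC II block PBS group left 2, and the count was 7 without isotype WT IL-2 replicate 2 or MHC II block WT IL-2 replicate 1. For H16R the members counted 5 higher and 1 lower, beside 10.6% higher and 8.47% lower of all 12392 genes tested. Bysl (0.32 ± 0.10, adjusted p = 0.041), Pno1 (0.32 ± 0.09, adjusted p = 0.023) and Rrs1, a 5S particle factor (0.26 ± 0.08, adjusted p = 0.031), fell less under block and Polr1b fell more (-0.26 ± 0.10, adjusted p = 0.073). For 3x they counted 5 higher and 13 lower, beside 20.3% higher and 18.7% lower of all 12392 genes tested. Gnl3 (-0.44 ± 0.07, adjusted p = 3.6e-05), Polr1b (-0.29 ± 0.09, adjusted p = 0.024) and Rrp9 (-0.28 ± 0.11, adjusted p = 0.051) fell more under block, while Bysl (0.31 ± 0.10, adjusted p = 0.024), Noc4l (0.27 ± 0.08, adjusted p = 0.011) and Pno1 (0.24 ± 0.09, adjusted p = 0.048) were among the 5 higher, and none of these 3 was called against PBS under block. Myc did not pass in any of the 3, at 0.31 (95% interval 0.06 to 0.56) for WT IL-2, 0.18 (95% interval -0.07 to 0.43) for H16R and -0.25 (95% interval -0.50 to -0.01) for 3x.

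The levels behind these interactions complete those given above. Dimt1, an 18S rRNA dimethyltransferase, held 15.3, 15.5, 14.5 and 15.9 CPM with PBS and 12.4, 11.9, 12.0 and 11.7 with WT IL-2 in the isotype arm and 14.9, 13.0, 13.1 and 14.7 CPM with PBS and 12.3, 13.3, 13.7 and 12.5 with WT IL-2 with block. Every treated library lay below every PBS library with isotype, and the sets overlapped with block. For Dkc1 the PBS levels were 68.2, 71.8, 66.6 and 65.1 CPM with isotype and 62.7, 62.0, 64.7 and 65.5 with block, and every treated library lay below every PBS library in both arms. Bysl held 33.8, 28.1, 28.5 and 27.1 CPM with isotype PBS, with every mutein library below every PBS library in that arm. Pno1 with block held 23.2, 21.2, 21.7 and 25.3 CPM with H16R and 25.2, 21.7, 24.6 and 26.7 with 3x, against 25.4, 25.1, 21.4 and 24.0 CPM with isotype 3x. Every mutein library of Pno1 lay below every PBS library with isotype, while with block the sets overlapped. Rrs1 held 24.0, 24.2, 24.0 and 24.9 CPM with isotype H16R and 26.2, 24.5, 26.6 and 27.1 with block. Polr1b with isotype held 43.4, 40.0, 43.5 and 46.4 CPM with PBS and 29.3, 33.1, 29.5 and 30.6 with 3x, and Rrp9 with isotype 3x 30.3, 33.9, 32.2 and 31.0 CPM. Noc4l held 46.3, 40.2, 42.3 and 38.2 CPM with isotype PBS, with every 3x library below every PBS library in that arm and the 3x and PBS libraries overlapping with block.

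Tregs and Tcons of the same 16 mice, 4 per treatment with both antibodies together, were compared within mice. In PBS mice the members counted 3 higher and 5 lower, beside 24.5% higher and 25.9% lower of all 12844 genes tested, at a median of 0.00. Wdr12 stood out, with 37.5 and 38.0 CPM in isotype PBS Tcons and 40.3 and 41.7 in MHC II block PBS Tcons, above every Treg library of the series (-0.72 ± 0.08, adjusted p = 3.4e-06). Polr1a was next (-0.31 ± 0.06, adjusted p = 0.00051), and Noc4l (0.20 ± 0.08, adjusted p = 0.069), Ncl (0.19 ± 0.08, adjusted p = 0.087) and Noc2l (0.16 ± 0.07, adjusted p = 0.074) were higher in Tregs. The PBS count was 4 without the mouse of isotype PBS replicate 1, that of isotype PBS replicate 2 or that of MHC II block PBS replicate 1. Levels are given for every PBS library, although the test used the Tregs of the mice with a Tcon library. Wdr12 held 24.7, 25.8, 22.7 and 25.5 CPM with isotype and 21.3, 23.7, 25.2 and 23.2 with block in Tregs. Polr1a held 87.1, 84.8, 88.9 and 93.5 CPM with isotype and 92.4, 93.2, 90.6 and 93.1 with block in Tregs and 106 and 112 CPM with isotype and 112 and 114 with block in Tcons, with every Treg library below every Tcon library. Rrp12 (-0.25 ± 0.10, adjusted p = 0.052) held 38.4 and 42.3 CPM with isotype and 42.6 and 45.5 with block in Tcons, with the Treg and Tcon libraries overlapping. Among the members higher in Tregs, Noc4l held 33.9 and 35.6 CPM with isotype and 38.5 and 38.5 with block in Tcons, with the Treg and Tcon libraries overlapping. Ncl held 1029, 1018, 1016 and 979 CPM with isotype and 933, 951, 912 and 954 with block in Tregs and 836 and 861 CPM with isotype and 869.9 and 897 with block in Tcons, with every Treg library above every Tcon library. Noc2l, a 60S factor, held 218, 207, 208 and 191 CPM with isotype and 207, 199.8, 199.9 and 199 with block in Tregs and 176 and 189 CPM with isotype and 187 and 193 with block in Tcons, with the Treg and Tcon libraries overlapping.

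With the muteins most members were lower in Tregs than in Tcons, and with WT IL-2 the count rested on single mice. With WT IL-2 they counted 0 higher and 21 lower, beside 32.0% higher and 31.5% lower of all 12844 genes tested. With H16R they counted 0 higher and 36 lower, beside 36.4% higher and 34.1% lower of all 12844 genes tested. With 3x they counted 0 higher and 37 lower, beside 36.7% higher and 34.4% lower of all 12844 genes tested. Medians were -0.19, -0.38 and -0.34, beside 0.01, 0.01 and 0.01 over all genes. The WT IL-2 count was 11 without the mouse of isotype WT IL-2 replicate 1 and 12 without that of MHC II block WT IL-2 replicate 2. It was 31 without the mouse of isotype WT IL-2 replicate 2, whose Tcon library had the highest Treg marker sum of the Tcons. Of the 6 B cell markers tested, 5 were lower in Tregs with PBS and WT IL-2 and 6 with H16R and 3x, and their part was not tested. Wdr12 was the lowest member in each, as at -1.03 ± 0.08, adjusted p = 3.7e-08 with H16R. Rrp12 held 38.2 and 38.2 CPM in isotype and 39.6 and 37.6 in MHC II block H16R Tcons, all above the H16R Tregs (-0.77 ± 0.10, adjusted p = 5.5e-06). Dkc1 (dyskerin) held 84.5 and 75.1 and 70.7 and 79.7 CPM in those Tcons, against 44.8, 45.3, 43.5 and 44.7 in isotype H16R Tregs (-0.76 ± 0.10, adjusted p = 5.4e-06). With block the H16R Tregs held 43.8, 45.8, 41.2 and 45.6 CPM of Dkc1, and every Treg library lay below every Tcon library. With WT IL-2, Dkc1 held 85.4 and 54.6 CPM with isotype and 77.1 and 77.5 with block in Tcons (-0.45 ± 0.10, adjusted p = 0.00094), and Rrp12 39.7 and 32.0 CPM with isotype and 37.3 and 40.2 with block (-0.44 ± 0.10, adjusted p = 0.0014). The Treg and Tcon libraries overlapped for Dkc1, and for Rrp12 every Treg library lay below every Tcon library. With 3x, Rrp12 held 36.0 and 41.5 CPM with isotype and 48.3 and 50.5 with block in Tcons (-0.80 ± 0.10, adjusted p = 3.3e-06), and Gnl3 52.9 and 48.9 CPM with isotype and 66.5 and 60.7 with block (-0.77 ± 0.13, adjusted p = 7.6e-05). For both genes every 3x Treg library lay below every 3x Tcon library. Wdr12 in Tregs held 20.0, 20.4, 19.2 and 20.8 CPM with isotype and 21.3, 19.6, 21.3 and 21.4 with block (WT IL-2), 19.3, 19.3, 20.4 and 18.5 CPM with isotype and 18.7, 18.1, 18.8 and 19.8 with block (H16R) and 19.4, 21.7, 19.7 and 21.9 CPM with isotype and 20.0, 21.5, 19.5 and 19.7 with block (3x). In Tcons it held 37.2 and 30.1 CPM with isotype and 41.5 and 39.6 with block (WT IL-2), 40.2 and 36.6 CPM with isotype and 37.2 and 42.5 with block (H16R) and 37.9 and 33.9 CPM with isotype and 42.4 and 45.2 with block (3x), with every Treg library below every Tcon library of the series. Myc held 99.1 and 101 CPM with isotype PBS, 78.3 and 53.4 with WT IL-2, 74.0 and 73.5 with H16R and 77.2 and 84.8 with 3x in Tcons. With MHC II block it held 87.1 and 87.7, 99.6 and 95.7, 92.4 and 88.0 and 119.7 and 114 CPM in the same order. Isotype WT IL-2 Tcon replicate 2, the Tcon library with the highest Treg marker sum, had the lowest value. The MHC II block 3x Tcons were the highest pair of Tcon libraries.

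**Figure D5:**
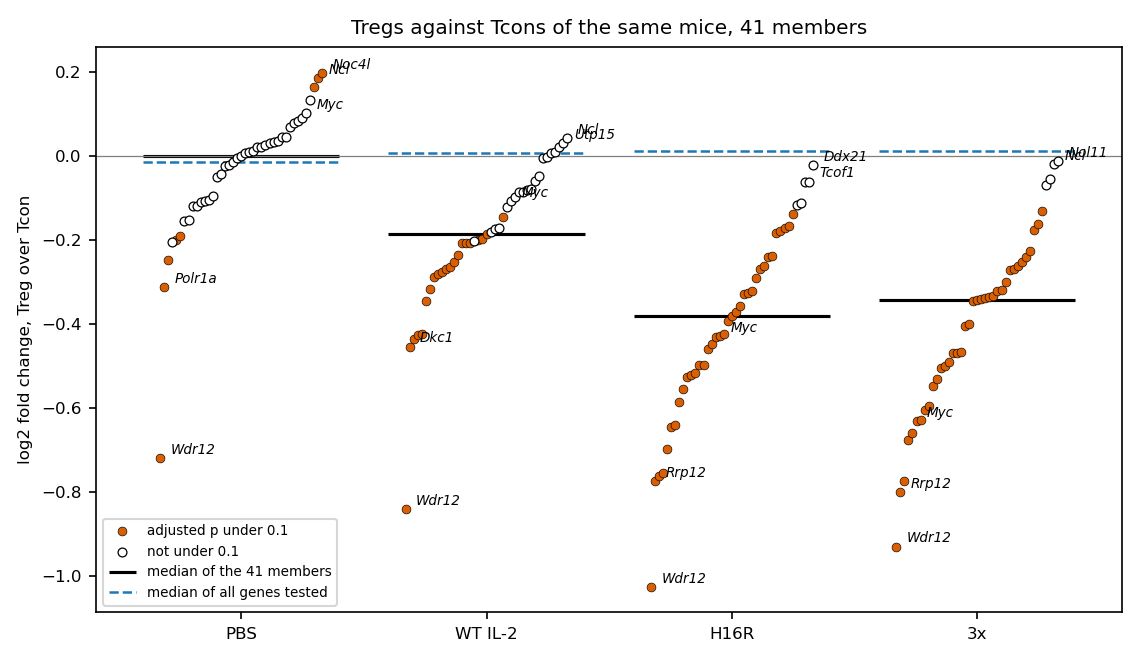
Log2 fold change of Tregs over Tcons of the same mice (y axis) for the 41 members, ordered within each treatment (x axis, 4 mice each); filled points passed an adjusted p of 0.1, solid bars are members' medians and dashed bars medians of all genes tested. Members centre on 0.00 with PBS and on -0.38 with H16R, and Wdr12 is lowest throughout.

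The difference of the changes between cell types was tested as well, with both antibody arms together. For WT IL-2 the members counted 0 higher and 0 lower, beside 7.26% higher and 4.94% lower of all 12844 genes tested, with 6 of 41 at an unadjusted p under 0.05 by edgeR and 0 called by DESeq2. Without the mouse of isotype WT IL-2 replicate 2 the count was 14. For H16R they counted 0 higher and 31 lower, beside 21.8% higher and 18.8% lower of all 12844 genes tested, with Nop16 (-0.69 ± 0.17, adjusted p = 0.0071), Dkc1 (-0.61 ± 0.14, adjusted p = 0.0045) and Rrp9 (-0.61 ± 0.12, adjusted p = 0.0026) furthest, and 19 without the mouse of isotype PBS replicate 1. For 3x they counted 0 higher and 27 lower, beside 24.3% higher and 22.2% lower of all 12844 genes tested, with Rrp9 (-0.77 ± 0.12, adjusted p = 0.0003), Myc (-0.73 ± 0.18, adjusted p = 0.0057) and Mybbp1a (-0.62 ± 0.13, adjusted p = 0.0018) furthest. Rrp9 held 40.1 and 45.3 CPM in isotype PBS Tcons, 41.7 and 43.9 with 3x, 44.3 and 45.6 in MHC II block PBS Tcons and 52.4 and 52.7 with 3x, so the 3x Tcons overlapped or exceeded their PBS Tcons. For Myc the 3x difference is an average over arms in which the Tcons went opposite ways. Isotype Tcons held 99.1 and 101 CPM of Myc with PBS and 77.2 and 84.8 with 3x. With block they held 87.1 and 87.7 CPM with PBS and 119.7 and 114 with 3x. Whether the arms differed was not tested. In the same 3x difference 5 of 8 proliferation markers were higher and none lower. Nop16, a 60S factor, held 24.5, 25.2, 25.1 and 20.6 CPM with isotype and 22.1, 23.3, 23.8 and 22.1 with block in PBS Tregs and 16.6, 16.0, 16.2 and 13.5 CPM with isotype and 17.0, 14.4, 15.7 and 17.3 with block in H16R Tregs, with every H16R library below every PBS library. In Tcons it held 21.9 and 20.9 CPM with isotype and 21.6 and 22.5 with block with PBS and 25.4 and 22.2 CPM with isotype and 23.4 and 24.5 with block with H16R, with the H16R and PBS libraries overlapping. Dkc1 in PBS Tcons held 70.0 and 74.4 CPM with isotype and 75.6 and 74.7 with block, with the H16R and PBS libraries overlapping, and Rrp9 in H16R Tcons 41.1 and 42.5 CPM with isotype and 42.9 and 40.1 with block, with the H16R and PBS libraries overlapping. Mybbp1a held 263, 242, 249 and 251 CPM with isotype and 244, 238, 241 and 249 with block in PBS Tregs and 184, 189, 165 and 176 CPM with isotype and 156, 154, 153 and 152 with block in 3x Tregs, with every 3x library below every PBS library. In Tcons it held 232 and 249.5 CPM with isotype and 246 and 255 with block with PBS and 231 and 244 CPM with isotype and 294 and 279.5 with block with 3x, with the 3x and PBS libraries overlapping.

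The Tcons were also compared among themselves, and markers of other cells moved with the groups. The sum of the 8 B cell markers, Ighm and Igkc among them, was 5191 to 11674 CPM in the 4 PBS Tcon libraries, 11174 to 27137 with WT IL-2, 16885 to 20348 with H16R and 4412 to 10641 with 3x. Of the 6 protein-coding B cell markers tested none was called with WT IL-2 or 3x and 3 were lower with H16R, while all 3 plasma cell markers were higher with WT IL-2 and with H16R. The myeloid sum was 348 to 552 CPM in MHC II block WT IL-2 Tcons against 41.1 to 42.9 in MHC II block PBS Tcons, and 4 of 5 myeloid markers were higher in block against isotype. With block the CD8 T and NK cell sum was 36.8 to 39.6 CPM with PBS and 98.8 to 187 with WT IL-2. It was 105 to 108 CPM with H16R and 83.3 to 94.7 with 3x. With isotype it was 72.4 to 80.9, 69.0 to 104, 96.6 to 109 and 82.6 to 103 CPM in that order. The erythroid sum with isotype was 4.61 to 9.19, 15.1 to 250, 45.6 to 53.8 and 2.52 to 4.33 CPM. With block it was 2.76 to 5.33, 25.7 to 149, 21.1 to 42.3 and 10.6 to 33.6 CPM. Their part in the Tcon results was not tested. Against PBS, WT IL-2 gave 0 higher and 15 lower, beside 14.8% higher and 12.4% lower of all 12526 genes tested. H16R gave 0 higher and 11 lower, beside 16.2% higher and 14.9% lower of all 12526 genes tested, and 3x gave 0 higher and 1 lower, beside 4.71% higher and 5.17% lower of all 12526 genes tested. Each of these values is an average over the antibody arms, and with 3x the share of all counts held by the 41 members stood on opposite sides of PBS in the arms. It was 0.491% and 0.514% in isotype PBS Tcons against 0.468% and 0.472% with 3x, and 0.511% and 0.522% in MHC II block PBS Tcons against 0.560% and 0.590% with 3x. Myc, whose Tcon values are given above, likewise stood below PBS with isotype and 3x and above it with block and 3x. Whether the arms differed in Tcons was not tested. Utp20 fell in each, at -0.34 ± 0.06, adjusted p = 0.0026 for WT IL-2, -0.38 ± 0.06, adjusted p = 0.001 for H16R and -0.24 ± 0.06, adjusted p = 0.028 for 3x. It held 68.3 and 74.2 CPM in isotype PBS and 76.6 and 74.9 in MHC II block PBS Tcons, against 57.1 and 61.6 and 51.8 and 55.9 with H16R. Heatr1, a large UTP-A scaffold, was next for WT IL-2 (-0.28 ± 0.06, adjusted p = 0.0079) and H16R (-0.24 ± 0.06, adjusted p = 0.012). Heatr1 held 95.8 and 101 CPM with isotype and 104 and 99.2 with block in PBS Tcons, 87.9 and 79.8 CPM with isotype and 81.6 and 80.9 with block after WT IL-2 and 88.8 and 92.3 CPM with isotype and 73.9 and 84.4 with block after H16R. Tsr1, a 40S maturation factor, held 70.8 and 76.2 CPM with isotype and 75.9 and 72.8 with block, 64.0 and 57.5 CPM with isotype and 60.8 and 65.4 with block (-0.26 ± 0.05, adjusted p = 0.0055) and 63.5 and 62.6 CPM with isotype and 62.6 and 68.2 with block (-0.20 ± 0.05, adjusted p = 0.012) in that order. For both genes every WT IL-2 Tcon library lay below every PBS Tcon library. Utp20 held 58.3 and 55.7 CPM with isotype and 61.4 and 56.0 with block after WT IL-2 and 60.985 and 62.8 CPM with isotype and 65.4 and 59.2 with block after 3x, with every treated library below every PBS library. Without 1 Tcon library the WT IL-2 count went down to 8 (MHC II block WT IL-2 replicate 1) or 9 (isotype PBS replicate 2 or either MHC II block PBS library), and the H16R count to 7 (MHC II block H16R replicate 1). Block against isotype over the Tcons gave 9 higher and 0 lower, beside 13.8% higher and 15.1% lower of all 12526 genes tested, led by Myc (0.30 ± 0.10, adjusted p = 0.057) and Bysl (0.22 ± 0.07, adjusted p = 0.048). Rrs1 was next (0.20 ± 0.06, adjusted p = 0.034). The Myc value is an average over treatments that did not all go 1 way. Myc in PBS Tcons was lower with block (87.1 and 87.7 CPM) than with isotype (99.1 and 101 CPM). With each of the IL-2 molecules every block Tcon library held more Myc than every isotype library. Bysl in Tcons held 29.7 and 31.6 CPM with isotype and 31.9 and 33.0 with block (PBS), 35.1 and 25.4 CPM with isotype and 34.2 and 34.5 with block (WT IL-2), 35.4 and 31.3 CPM with isotype and 37.9 and 34.7 with block (H16R) and 30.5 and 30.2 CPM with isotype and 42.3 and 44.4 with block (3x). Rrs1 held 34.0 and 36.4 CPM with isotype and 37.0 and 37.5 with block (PBS), 36.0 and 27.9 CPM with isotype and 38.3 and 40.1 with block (WT IL-2), 39.6 and 37.6 CPM with isotype and 39.8 and 39.9 with block (H16R) and 35.2 and 35.4 CPM with isotype and 45.8 and 45.5 with block (3x). Over all Tcons the block and isotype libraries overlapped for Bysl, and under 3x every block library lay above every isotype library. The count of 9 rested on single libraries. It was 28 without isotype WT IL-2 replicate 1, 5 without its replicate 2 or MHC II block WT IL-2 replicate 1, and 2 or 3 without any of the isotype or MHC II block 3x libraries.

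The other genes of the pathway fell and rose. Of 99 further RNA polymerase I and ribosome assembly genes tested in Tregs, 63 fell and 8 rose with WT IL-2, 65 and 12 with H16R and 57 and 11 with 3x in the isotype arm. With MHC II block the numbers were 57 and 2, 67 and 11, and 67 and 11. The shares over all genes tested, given above for each comparison, were 31.4% higher and 32.8% lower for isotype H16R. Medians over the 99 genes with H16R were -0.26 with isotype and -0.21 with block. With isotype H16R the 60S list fell in 32 of 42 genes, led by Mdn1, the AAA ATPase midasin (-0.80 ± 0.16), and Nle1 (-0.76 ± 0.07), while Tex10 (0.31 ± 0.06) and Nsa2 (0.24 ± 0.06) rose. The processome list fell in 17 of 30, led by Rcl1 (-0.65 ± 0.06), and the snoRNP assembly list in 8 of 10, led by Naf1 (-0.72 ± 0.09). Of the RNA polymerase I list 6 of 13 were lower, such as Taf1a (-0.49 ± 0.08), and 4 higher, such as Taf1c (0.37 ± 0.06). Both counts of that list are near the shares over all genes.

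Growth genes known as Myc targets fell in 16 of 20 with isotype H16R and rose in 1, beside 32.8% lower and 31.4% higher of all genes tested. The amino acid transporter gene Slc7a5 (-0.97 ± 0.08) and the spermidine synthase gene Srm (-0.95 ± 0.10) fell most, and Ldha, for lactate dehydrogenase, rose (0.56 ± 0.08). With MHC II block and 3x, Srm (-0.78 ± 0.09) and Shmt1 (-0.76 ± 0.08) fell most and Ldha (1.07 ± 0.08) and Ccnd2 (0.72 ± 0.07) rose.

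Among the other genes of the Myc, Max, Mxd and Mlx network, Max itself was not called with isotype H16R (0.02 ± 0.05). The antagonists Mxi1 (0.39 ± 0.05) and Mxd1 (0.37 ± 0.08) rose, as did Mlx (0.26 ± 0.06). Mnt (-0.12 ± 0.05), Mga (-0.35 ± 0.13) and the paralogs Mycn (-1.17 ± 0.35) and Mycl (-3.23 ± 0.46) fell, which made 3 of 11 higher and 4 lower. With block, Mycl was not called with H16R (-0.66 ± 0.41) or 3x (-0.63 ± 0.40). Mycn was called with H16R (-0.59 ± 0.29, adjusted p = 0.083) and not with 3x (-0.31 ± 0.28). With MHC II block and 3x, 4 of 11 were higher and 4 lower. These counts and those with isotype H16R are near the shares over all genes given above. With block and 3x, Mxi1, Mxd1 and Mlx rose, at 0.43 ± 0.05, 0.70 ± 0.08 and 0.59 ± 0.06, together with Mxd3 (1.70 ± 0.19), while Mga (-0.70 ± 0.13), Mlxip (-0.28 ± 0.08), Mnt (-0.23 ± 0.05) and Mxd4 (-0.22 ± 0.05) fell. Proliferation markers were mixed with WT IL-2 and isotype H16R. With isotype, 5 of 8 were higher and 3 lower both for WT IL-2 and for H16R, and their sum of 724 to 871 CPM with H16R overlapped the 699.8 to 798 CPM of PBS. With MHC II block, 4 were higher and 2 lower for WT IL-2, and 5 higher and none lower for H16R. With isotype 3x, 5 of 8 were higher and 2 lower, and with MHC II block and 3x 6 were higher and none lower. Their sum was 718 to 754 CPM in MHC II block PBS Tregs and 1284 to 1702 with 3x.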

How the data were processed

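RNA was sequenced from 32 Treg and 16 Tcon libraries. The authors aligned reads with the Omicsoft OSA aligner to mouse GRCm38 and deposited RSEM expected counts and FPKM values per gene and library. The expected counts deposited by the authors were rounded to whole numbers here before testing, and the deposited FPKM values were used for levels between genes and as an alternative on the log2(FPKM + 1) scale. Tables of the authors' own DESeq2 (version 1.30.1) comparisons hold fold changes and p-values and were not used.

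Protein-coding genes above 0.5 CPM in at least 4 libraries of the fit were tested with edgeR 4.0.16 in R 4.3.3 (glmQLFit and glmQLFTest, TMM scaling), with Benjamini-Hochberg adjustment over all genes tested and a threshold of 0.1. Tregs were fitted as 8 groups, Tregs against Tcons with the mouse as a block (the labels name the mouse), and Tcons with treatment and antibody as additive terms. Intervals are the estimate ± 1.96 standard errors. DESeq2 1.42.0 and limma 3.58.1 served as alternatives, with total-count scaling, no filter, all biotypes, thinning to the smallest library, fewer groups and left-out libraries. Across Treg groups, libraries with the same number did not deviate together (median r = 0.02 over 112 pairs, against 0.00 over 336 others). No 2 libraries of a group agreed within sampling noise. The code was tested on simulated counts.

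The members and gene lists were chosen with earlier results of these data known. All 41 members may be named. Myc, the members the study names and the 3 largest rises and falls of a comparison are given by library, and other pathway genes by the 2 largest in each direction above 5 CPM. RefSeq windows were matched by symbol. Whether replicates came from separate cages is not given in the sources used here, and p-values measure the spread between these mice.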

Additional observations from a re-analysis of the deposited data

Results flagged for a closer look

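In isotype PBS Tregs, Ddx21 in replicate 4 (379 CPM) and Nol11 in replicate 1 (44.2 CPM) lay far from the other 3 libraries of the group for the spread among them. Of 48 such checks of groups of 4, chance would mark about 1 in 20. The effect of a molecule differed between the antibody arms by the interaction test in 4 members for WT IL-2, 6 for H16R and 18 for 3x. Of all genes tested, 11.7% were called higher and 7.98% lower for WT IL-2, 10.6% and 8.47% for H16R, and 20.3% and 18.7% for 3x, beside 4 members higher and 0 lower, 5 and 1, and 5 and 13 in that order. The WT IL-2 and H16R counts are near or below those shares. For 3x the lower count is above its share and the higher count below it. The effect differed between Tregs and Tcons by the test of the difference in 0 members for WT IL-2, 31 for H16R and 27 for 3x, each of these 31 and 27 lower. Of all genes tested, 4.94% were called lower for WT IL-2, 18.8% for H16R and 22.2% for 3x. When each mouse in turn was left out, the WT IL-2 count ran from 0 to 14 and the H16R count from 19 to 30, the 19 without the mouse of isotype PBS replicate 1.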

How the results depend on the processing

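The members called against PBS in Tregs stayed within 1.5 times of the reported counts under DESeq2, total counts, no filter, all biotypes, limma, thinning and fewer groups. A further demand of 0.5 or more in log2 fold change, either way, left 2, 19 and 5 members for WT IL-2, H16R and 3x with isotype and 0, 13 and 12 with MHC II block, because most falls were smaller than that. For the pairs H16R against WT IL-2, 3x against WT IL-2 and 3x against H16R, the same rule left 0, 0 and 0 members with isotype and 3, 3 and 0 with block. For block against isotype it left 0, 0, 0 and 1 (PBS, WT IL-2, H16R and 3x), and for the interactions 0, 0 and 0. Total counts alone moved the median of all genes by up to -0.11 (Tregs against Tcons with H16R).

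Under the other settings the following counts moved by more than 1.5 times, and the cause was not tested. The count for 3x against WT IL-2 with isotype was 5 with no filter. For 3x against H16R with block it was 5 by DESeq2, 6 with total counts, 7 by limma with either pseudocount and 5 without both libraries that stood apart. For block against isotype with PBS it was 7 with total counts, 6 with no filter, 7 by limma with either pseudocount, 7 after thinning and 4 with the compared groups alone. With H16R it was 8 with total counts, 7 with no filter, 6 with all biotypes and 8 by limma with either pseudocount. The WT IL-2 interaction was 2 with no filter and the H16R interaction 3 after thinning. In Tcons, 3x against PBS gave 3 by DESeq2 and 2 with 8 groups in the model, and block against isotype 15 with 8 groups.

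Leaving out 1 library or mouse gave 5 to 9 members for 3x against WT IL-2 and 12 to 24 for 3x against H16R with isotype, and 2 to 5 for 3x against H16R with block. It gave 6 to 10 and 5 to 15 for block against isotype with PBS and H16R, and 2 to 7 for the WT IL-2 interaction. Tregs against Tcons gave 4 to 6 with PBS and 11 to 31 with WT IL-2, and the differences gave 0 to 14 for WT IL-2 and 19 to 30 for H16R. In Tcons it gave 8 to 16 for WT IL-2, 7 to 11 for H16R and 2 to 28 for block against isotype.

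Among single members, 26 of the recomputed values changed sign, all of values that had not passed the threshold. Nob1 with isotype 3x against PBS was 0.001 with no filter and 0.029 without both libraries that stood apart, and -0.059 to 0.023 without 1 library. With MHC II block, 3x against PBS gave Bysl -0.030 with total counts, -0.029 and -0.033 by limma with a pseudocount of 1 and 0.1, -0.023 after thinning and -0.026 to 0.077 without 1 library. Ddx21 was -0.020 with total counts and by limma with either pseudocount, and -0.019 to 0.040 without 1 library. Noc4l was 0.001 by DESeq2, 0.030 with no filter, 0.056 with all biotypes, 0.000 after thinning and -0.035 to 0.023 without 1 library. Myc for 3x against WT IL-2 with isotype was -0.002 with total counts and -0.028 to 0.082 without 1 library.

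Blocking on the replicate number, the counts against PBS were 39, 41 and 38 with isotype and 34, 38 and 36 with MHC II block, and no count moved by more than 1.5 times. The numbers did not pair the Treg libraries. Without the mouse as a block, Tregs against Tcons gave 8, 22, 36 and 37 members with PBS, WT IL-2, H16R and 3x. The isotype PBS Tregs had the fewest reads, and Tcon comparisons rest on 2 mice a group.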
